A study of Homo sapiens with 6 samples.

Results

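The 4 genes described here encode signals known for guiding or sustaining nerve cells: NRTN, SLIT2, SEMA3C and EPHA2. They were read on arrays of CCD-18Co, an established line of human colon fibroblasts that the submitters describe as myofibroblasts. A probe set, the group of oligonucleotides that together report a transcript, was taken where either gene symbol in the authors' deposited list of differences at p up to 0.05 was that of a member. This gave 6 probe sets of the 54613 on the arrays: 3 for SLIT2 and 1 each for NRTN, SEMA3C and EPHA2. SHH, the secreted ligand sonic hedgehog, was given to 3 biological replicates at 1 ug/ml for 72 h, and 3 replicates were left untreated with no culture time recorded. All cultures were in medium with 0.1% BSA, and the readme calls the untreated group vehicle. The cells are a single line, so the replicates hold no spread between donors.

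Neurturin (NRTN) is a secreted ligand of the GDNF family, which binds a GPI-anchored GFRA co-receptor and signals through the RET tyrosine kinase, and it supports enteric neurons. Slits are secreted glycoproteins that repel growing axons and migrating cells through ROBO receptors. Class 3 semaphorins such as SEMA3C are secreted guidance factors that act through neuropilins and plexins. EPHA2 is an Eph receptor tyrosine kinase, bound by ephrin-A ligands on neighbouring cells, and is thus the receiving member of the 4. In the gut wall, such signals are known for shaping the enteric nervous system, and several of them also act on fibroblasts, epithelium and vessels.

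The members were chosen with the SHH-against-untreated difference of these same arrays in view. Their differences are therefore given as a description. Where limma's calls among them are counted, the count is part of that description and not evidence. No other contrast exists in the study, so the data hold no independent check of these differences. In the authors' deposited table the member probe sets have p between 2.14e-04 (NRTN) and 0.0299 (EPHA2). EPHA2 thus lies nearest to the naming limit of 0.05, and probe sets beyond it carry no name here, so further probe sets of the same genes were not analysed here.

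The promoter windows of the 2 members that were higher with SHH are shown because these genes moved the same way on the arrays. The sequences are RefSeq's, in build GRCh38.p14, from 250 bases before to 50 after the gene's start. All 4 genes matched by symbol, SEMA3C with 2 windows. NRTN lies at chr19:5804817-5805116 on the + strand and SLIT2 at chr4:20251655-20251954 on the + strand. Capitals mark the GC box GGGCGG and the letters CCACCC, the core of the GLI consensus GACCACCCA, each on either strand.
NRTN: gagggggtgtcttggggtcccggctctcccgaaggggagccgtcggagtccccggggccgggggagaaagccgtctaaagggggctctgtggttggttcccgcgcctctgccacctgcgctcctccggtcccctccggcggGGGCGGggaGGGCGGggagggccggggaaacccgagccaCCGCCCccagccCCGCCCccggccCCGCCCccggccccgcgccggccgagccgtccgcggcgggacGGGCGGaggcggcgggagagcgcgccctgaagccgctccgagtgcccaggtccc
SLIT2: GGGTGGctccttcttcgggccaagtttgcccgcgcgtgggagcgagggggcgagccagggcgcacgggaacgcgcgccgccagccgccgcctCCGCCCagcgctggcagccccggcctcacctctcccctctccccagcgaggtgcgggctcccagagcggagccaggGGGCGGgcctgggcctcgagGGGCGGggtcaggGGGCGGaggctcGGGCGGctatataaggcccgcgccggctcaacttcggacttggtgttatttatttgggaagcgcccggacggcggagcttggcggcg

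The GC box occurred 6 times in the NRTN window and 5 times in the SLIT2 window, and 45.0% of all 35116 windows held it at least once. The full GLI consensus, searched because GLI factors are the transcription factors of the hedgehog pathway, was in neither window, nor in those of SEMA3C and EPHA2. It was in 0.236% of all windows. Its core CCACCC, in 34.3% of all windows, stood once in the SLIT2 window, as the reverse complement at its 5' end, and once in 1 of the SEMA3C windows, and not in those of NRTN and EPHA2. A match is a description of the letters only, and its absence says nothing of sites outside the window. By base composition, G and C made up 80.0% of the NRTN window and 74.3% of the SLIT2 window. EPHA2 had 64.3%, the windows of SEMA3C had 75.7% and 36.0%, and the median of all windows was 58.7%.

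The treatment is visible in the hedgehog receptor and target PTCH1, whose brightest named probe set averaged 8635 ± 414 in SHH-treated and 1368 ± 77.4 in untreated cells (SD, n = 3 each). The pathway's transcription factor GLI1 averaged 674 ± 89.9 with SHH and 114 ± 55.8 untreated (SD, n = 3 each). It did not pass in limma (adjusted p = 0.110), but passed with an intensity trend (limma adjusted p = 0.00355). The arrays had median signals between 94.4 and 111 and trimmed means between 498.1 and 498.2. Their number limits the precision of every value. Signals are linear, and differences are on the log2(signal + 16) scale, SHH minus untreated. The ± of a difference is limma's moderated SE, which borrows from the spread of the whole table. Of the fibroblast and myofibroblast markers, 5 of 14 had a named probe set: COL3A1, DCN (by a probe set that the authors mark as intronic), PDPN, POSTN and S100A4. The lowest group mean among their brightest named probe sets was 239.6, for DCN with SHH. Their log2 differences between SHH and untreated were 1 higher and 4 lower: POSTN lay at -0.98 ± 0.14, DCN at -0.93 ± 0.25, COL3A1 at -0.66 ± 0.17 and S100A4 at -0.50 ± 0.10, against 0.57 ± 0.14 for PDPN. In limma 0 of the 5 passed after adjustment, with 5 at an unadjusted p under 0.05 and 3 past the threshold with an intensity trend. They were named by the authors' p on these same arrays, so these counts are no evidence. COL3A1 was read by a dim probe set, at 243 ± 37.4 with SHH and 395 ± 65.3 untreated (SD, n = 3 each). Unnamed probe sets of these genes were not analysed here, so the differences stand for the named probe sets only. The part of these markers in the members' differences was not tested. The others, unnamed here, leave the label only partly checked.

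The neurotrophic ligand NRTN showed the widest difference of the 4 genes. Its signal was 2299.5, 2367 and 1900.3 in SHH-treated cells, against 711, 593 and 723 in untreated cells. The groups did not overlap: the lowest SHH array was 2.63 times the highest untreated array. Group means were 2189 ± 252 with SHH and 676 ± 71.8 untreated (SD, n = 3 each), a 3.18-fold difference, or 1.67 ± 0.15 on the log2 scale. The relative spread was much alike, with a coefficient of variation of 11.5% with SHH and 10.6% untreated. SHH replicate 3 and untreated replicate 2 were the low arrays of their groups. Because these are whole-culture RNAs, more cells expressing a transcript and more transcript per cell cannot be told apart, here and for every gene below.

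The guidance ligand SLIT2 was higher with SHH by all 3 of its named probe sets. The brightest, 230130_at, is assigned to SLIT2 by the array annotation alone, as the authors' own symbol column leaves it without a gene. It read 1064, 1071 and 988 with SHH, against 484, 408 and 414 untreated. The arrays of the groups were clearly apart, the lowest SHH array being 2.04 times the highest untreated one. The means were 1041 ± 46.1 with SHH and 436 ± 42.3 untreated (SD, n = 3 each), 2.35-fold apart, and the log2 difference was 1.23 ± 0.12.

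The other named SLIT2 probe sets gave smaller differences. Probe set 209897_s_at, which both symbol columns call SLIT2, read 628, 788 and 649 with SHH, against 493, 361 and 327 untreated. Its groups were apart by a factor of only 1.27, between SHH replicate 1 and untreated replicate 1. Its log2 difference was 0.80 ± 0.19. Probe set 228850_s_at, which the authors mark as lying 3' of the gene, read 292, 399 and 356 with SHH, against 179.9, 177 and 219.6 untreated. SHH replicate 1 was its low array and untreated replicate 3 its high one, and the nearest arrays of the groups differed 1.33-fold. Its log2 difference was 0.81 ± 0.16. The size of the SLIT2 difference thus varied among the named probe sets, 2.35-fold by the brightest and 1.74-fold and 1.75-fold by the others. All were higher with SHH, but each was named by a small p on these arrays, so their shared direction is no evidence.

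The semaphorin ligand SEMA3C was lower with SHH. Its probe set read 339, 303 and 334 in SHH-treated cells, against 494, 712 and 527 in untreated cells. The SHH arrays lay close together, whereas untreated replicate 2 stood well above the other untreated arrays. The groups did not overlap, the lowest untreated array being 1.46 times the highest SHH array. The means were 325 ± 19.3 with SHH and 578 ± 117 untreated (SD, n = 3 each). The log2 difference was -0.78 ± 0.17, or -0.63 without untreated replicate 2. The coefficient of variation was 5.92% with SHH and 20.3% untreated.

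The receptor EPHA2 was also lower with SHH, by the smallest amount among the members and with the tightest arrays. Its signal was 538, 513 and 504 with SHH, against 712, 725 and 718 untreated. The untreated arrays were nearly equal, with a coefficient of variation of 0.925%, and the SHH arrays varied by 3.41%. The nearest arrays of the groups differed 1.32-fold. The means were 519 ± 17.7 with SHH and 718 ± 6.64 untreated (SD, n = 3 each), and the log2 difference was -0.46 ± 0.10. The moderated SE is wider than these arrays' own spread because limma draws it towards that of all probe sets.

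**Figure D1:**
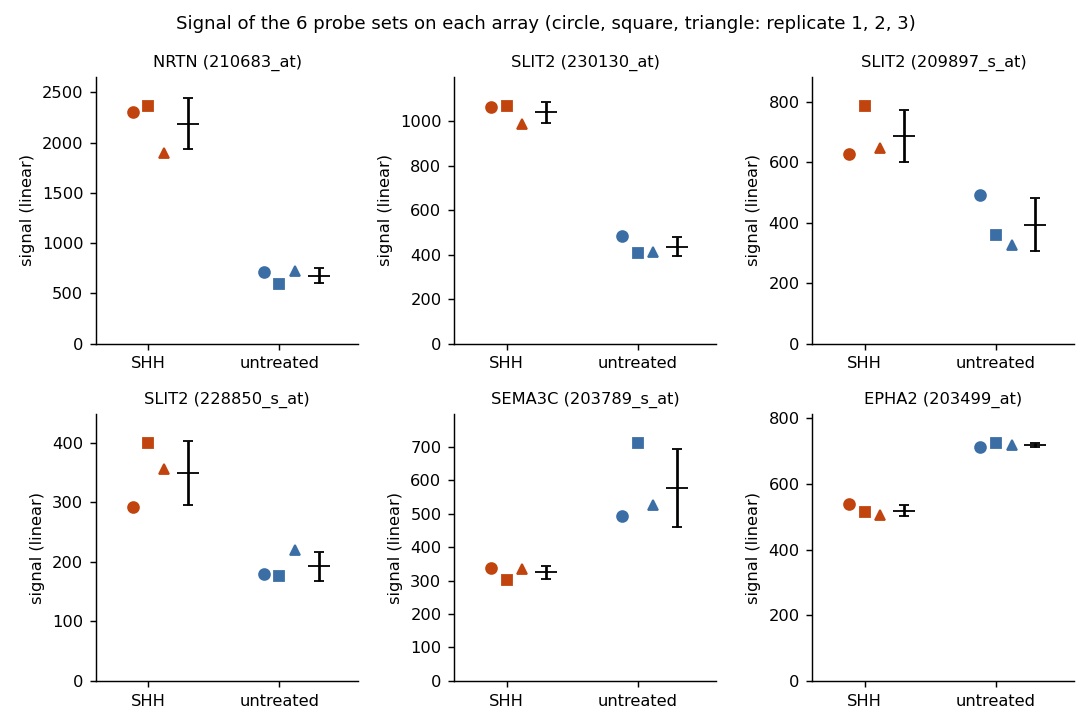
Linear signal of the 6 member probe sets on each array, SHH left and untreated right, with the mean and SD of each group (n = 3) beside the points. The SHH arrays lie above all untreated arrays for NRTN and the 3 SLIT2 probe sets and below them for SEMA3C and EPHA2.

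On all 6 probe sets the arrays of the 2 groups were apart, which held for 17.3% of the probe sets on the arrays, 6.97% higher and 10.3% lower with SHH. In limma's fit over the whole table (Benjamini-Hochberg adjusted p under 0.05), 2 of the 6 were past the threshold, NRTN and the brightest SLIT2 probe set, both higher. In the same fit 0.123% of all probe sets passed, 0.0824% higher and 0.0403% lower with SHH. Since the members were picked from this contrast, nothing is read from either count. With an intensity trend, which lets limma's prior spread depend on the signal, 6 of the 6 passed, against 1.86% of all probe sets, 1.01% higher and 0.85% lower with SHH. With any 1 array left out, 0 of them and 0 of the 54613 passed.

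Within the groups, the members did not share a common high or low array. On untreated replicate 2, NRTN deviated from its group mean by -0.18 on the log2 scale and SEMA3C by 0.31, while EPHA2 deviated by 0.01. On SHH replicate 3, NRTN deviated by -0.20 and the brightest SLIT2 probe set by -0.07, against 0.04 for SEMA3C. The 3 SLIT2 probe sets did not follow each other closely either: on untreated replicate 1 they deviated by 0.15, 0.33 and -0.08 in the order of brightness. The spread within the groups enters the p by which a probe set was named, so these deviations are a description too.

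**Figure D2:**
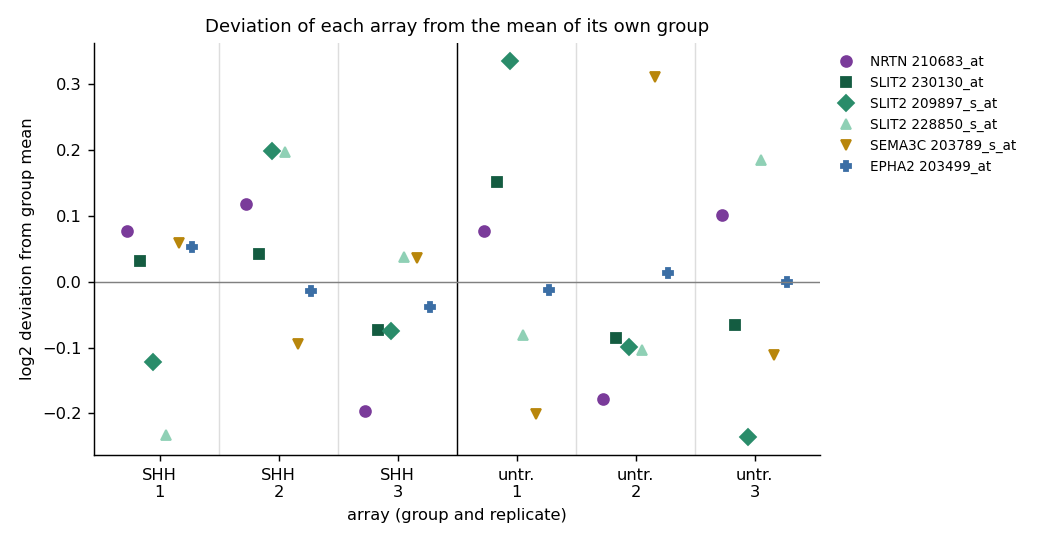
Log2 deviation of each member probe set on each array from the mean of its own group, with the SHH arrays left of the untreated arrays. No array is high or low for all members, and the widest deviations are those of SLIT2 209897_s_at (0.33, untreated replicate 1) and SEMA3C (0.31, untreated replicate 2).

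The other genes of these pathways were taken from 4 lists of 110 genes in all. Of these, 19 had a name, the 4 members among them, and all 19 were named because of a small p in these samples, so that their directions are no independent evidence. The brightest named probe set stands for a gene. Of the 15 that are not members, 6 were higher and 9 lower with SHH. In limma 0 of the 15 passed after adjustment. Of them 14 had an unadjusted p under 0.05, as did 5310 of the 54613 probe sets on the arrays. With an intensity trend 9 passed, against 1.86% of all probe sets. Naming by p raises such counts and favours probe sets with the groups apart, here and in every list below, so neither is evidence. The 91 unnamed genes were not analysed here. The median log2 difference was -0.38 over the 19 named genes, 0.22 over all 1632 named genes and -0.05 over all probe sets.

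On the neurotrophic side 5 of 29 genes could be read, NRTN among them, with 3 higher and 2 lower. GFRA1, a co-receptor of the GDNF family that neurturin can also bind, read 839.9, 851 and 1007 with SHH, against 693, 600.2 and 735 untreated. Its arrays did not overlap, but the difference of 0.40 ± 0.14 did not pass (limma adjusted p = 0.436). LIFR, the receptor subunit for leukaemia inhibitory factor and ciliary neurotrophic factor, had 3 named probe sets, all higher, between 0.52 and 0.64. By the brightest it averaged 2922 ± 290.2 with SHH and 1936 ± 193 untreated (SD, n = 3 each; limma adjusted p = 0.251).

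In the other direction lay the growth factors PTN and BDNF. Pleiotrophin (PTN), a secreted heparin-binding factor that promotes neurite outgrowth, read 3265, 3227 and 3377 with SHH, against 5857, 5957 and 5898 untreated. This was a narrow spread in both groups around a log2 difference of -0.84 ± 0.10, just short of the threshold (limma adjusted p = 0.0649). All 3 of its named probe sets were lower, and all carry the suffix _x_at, which Affymetrix gives where probes may also match other sequences. BDNF, the neurotrophin bound by the TrkB receptor, averaged 3172 ± 27.1 with SHH and 4196 ± 246 untreated (SD, n = 3 each), a log2 difference of -0.40 ± 0.10 (limma adjusted p = 0.302). Its 3 named probe sets were all lower.

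Of the slits, netrins and their receptors, 3 of 25 could be read, SLIT2 among them, with 2 higher and 1 lower. ROBO1, a receptor of SLIT2, read 2312, 2237 and 2266 with SHH, against 1794, 1907 and 1681 untreated. Its groups did not overlap, and its log2 difference of 0.34 ± 0.11 did not pass (limma adjusted p = 0.395). SRGAP1, a GTPase-activating protein that acts downstream of ROBO receptors, had 3 named probe sets, all lower, between -0.61 and -0.42, and the brightest had overlapping groups (limma adjusted p = 0.527).

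Among semaphorins, plexins and neuropilins 8 of 34 genes could be read. Of these 3 were higher and 5 lower, and 0 passed by their brightest probe set in limma, with 8 at an unadjusted p under 0.05 and 4 past the threshold with an intensity trend. NRP1, a neuropilin co-receptor shared by class 3 semaphorins and VEGF, read 239, 226 and 216 with SHH, against 423, 479.6 and 398 untreated, a log2 difference of -0.88 ± 0.12 (limma adjusted p = 0.0852). A dimmer NRP1 probe set that the authors place in an intron fell, at 26.0, 22.2 and 17.9 with SHH against 95.2, 93.3 and 77.5 untreated (limma adjusted p = 0.0496; the trended prior gave 0.0634). The related NRP2 lay at -0.38 ± 0.11, with both of its named probe sets lower. The brightest did not pass (limma adjusted p = 0.359, or 0.0933 with an intensity trend). Thus the named probe sets of the ligand SEMA3C and of both neuropilins had lower signal with SHH. Each was named by a small p on these arrays, so this shared direction is no evidence.

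Other members of the list differed in sign. The plexin PLXNA4, a signalling receptor for class 3 and class 6 semaphorins, read 196, 235 and 238 with SHH, against 78.7, 77.6 and 118 untreated, a log2 difference of 1.17 ± 0.19 from a dim signal (limma adjusted p = 0.119). SEMA3A, another secreted class 3 semaphorin, lay at 0.69 ± 0.24 by a probe set marked as 3' of the gene, opposite in sign to SEMA3C. The membrane semaphorin SEMA4D lay at 0.83 ± 0.13. The transmembrane semaphorins SEMA6A and SEMA6D lay at -0.28 ± 0.11 and -0.48 ± 0.12. None of these 5 genes passed limma's adjusted threshold.

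Of the ephrins and Eph receptors, 3 of 22 could be read, and all were receptors with lower signal with SHH; 0 passed in limma, with 3 at an unadjusted p under 0.05 and 3 past the threshold with an intensity trend. EPHA4, which binds ephrins of both classes, had 4 named probe sets, all lower, between -0.82 and -0.44. The groups were apart on all 4, as on 10.3% of all probe sets in this direction, and naming by p favours such probe sets. By its brightest probe set EPHA4 read 1772, 1972 and 1964 with SHH, against 2528, 2748 and 2504 untreated (limma adjusted p = 0.283). EPHB3, a receptor of ephrin-B ligands, read 406, 511 and 505 with SHH, against 737, 730.3 and 771 untreated, a log2 difference of -0.64 ± 0.13 (limma adjusted p = 0.206). With EPHA2, this made 3 named Eph receptors lower and 0 higher; no ephrin had a name.

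**Figure D3:**
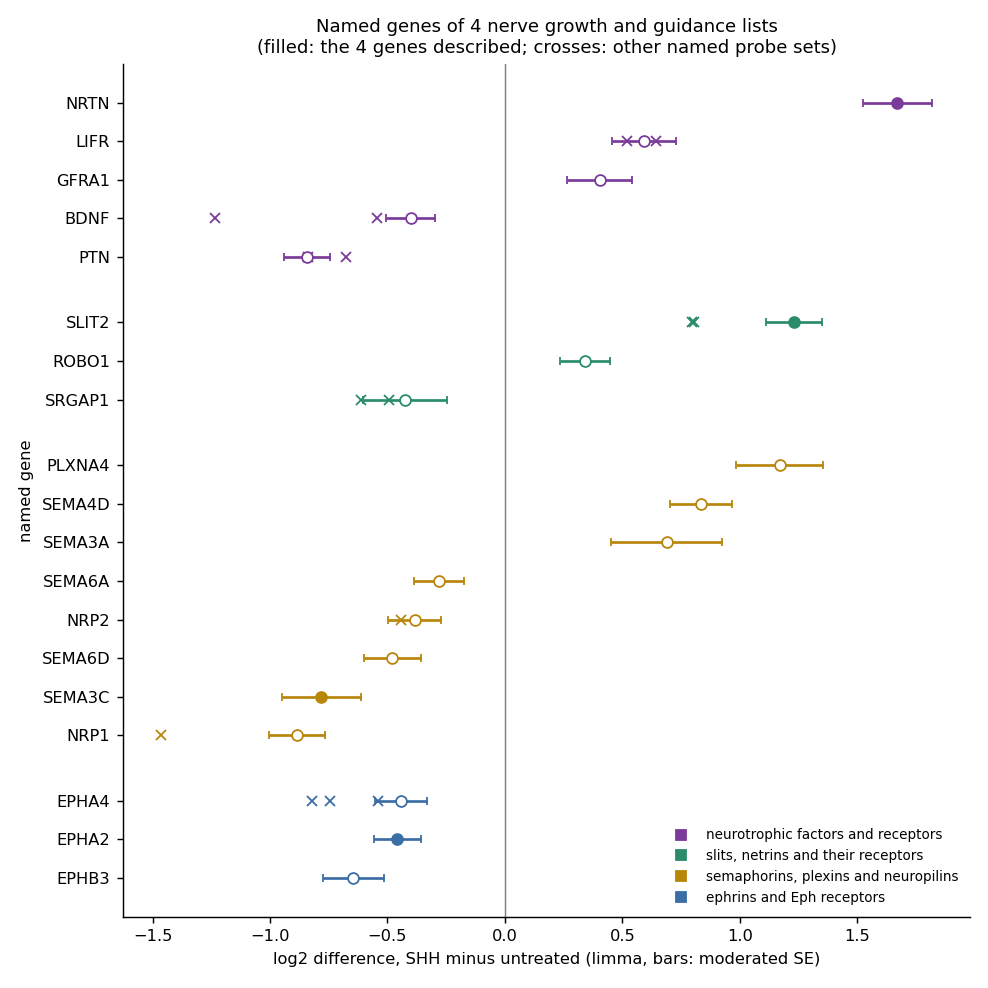
Log2 difference of the brightest named probe set of each named gene of the 4 lists (circles, bars show limma's moderated SE, filled for NRTN, SLIT2, SEMA3C and EPHA2), with the other named probe sets of the gene as crosses. NRTN (1.67) and SLIT2 (1.23) lie farthest right, and the 3 Eph receptors lie left of 0.

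Markers of cells that could carry such signals were looked up in the same way. The neuronal list had 1 named gene of 11, UCHL1, which read 6527, 6168 and 6476 with SHH, against 3865, 4167 and 3962 untreated, a log2 difference of 0.67 ± 0.10 (limma adjusted p = 0.109). NEFL, a neurofilament gene that is not on the list and was named after its value was seen, lay the other way, at a dim 18.4 ± 14.3 with SHH and 75.0 ± 27.7 untreated (SD, n = 3 each), a log2 difference of -1.47 ± 0.40 (limma adjusted p = 0.330). Enteric glia and Schwann cell markers had 0 named of 8, and endothelial markers 0 of 6. KRT18 (-0.42 ± 0.11) was the 1 named epithelial marker of 9 and CD14 (0.73 ± 0.25) the 1 named leukocyte marker of 6. For interstitial cells of Cajal and for pericytes 5 of 8 markers could be read, of which 1 was higher and 4 were lower. ANO1, a chloride channel of the interstitial cells, lay at 0.40 ± 0.14, and their receptor KIT lay at -0.44 ± 0.11. PDGFRB lay at -0.46 ± 0.13, KCNJ8 at -0.88 ± 0.18 and RGS5 at -0.66 ± 0.16. None of these 8 listed markers passed in limma after adjustment, all 8 had an unadjusted p under 0.05, and UCHL1, KRT18, KIT and PDGFRB passed with the intensity trend. Since the unnamed markers have no value here, no summed level of a list can be given, and the part of these markers in the members' differences was not tested.

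For each member, the 3 named genes nearest to it over the 6 arrays were found among the 1491 other named genes brighter than the median, by the root mean square difference of log2 values centred on each gene's mean. For NRTN these were ST3GAL5, the synthase of the ganglioside GM3, at a distance of 0.096, TGFBR3, the TGF-beta co-receptor betaglycan, at 0.13, and the proprotein convertase PCSK5 at 0.15. For SLIT2 they were the matricellular protein CCN4 at 0.038, the methyltransferase LCMT1 at 0.081 and the chloride transporter CLCN3 at 0.098. For SEMA3C they were the small heat shock protein HSPB6 at 0.038, the interferon-induced IFIT1 at 0.091 and the transcription factor GATA6 at 0.096. For EPHA2 they were ATP1B1, a subunit of the sodium pump, at 0.034, the zinc finger protein HIVEP1 at 0.035 and PAMR1 at 0.037. Like SEMA3C, all 3 of its nearest genes were highest on untreated replicate 2, at 0.63 above its own mean for HSPB6, 0.55 for IFIT1 and 0.63 for GATA6, a pattern for which they were chosen. The distances rest on 6 arrays in 2 groups and take in the group difference itself, so they describe likeness in these arrays only.

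**Figure D4:**
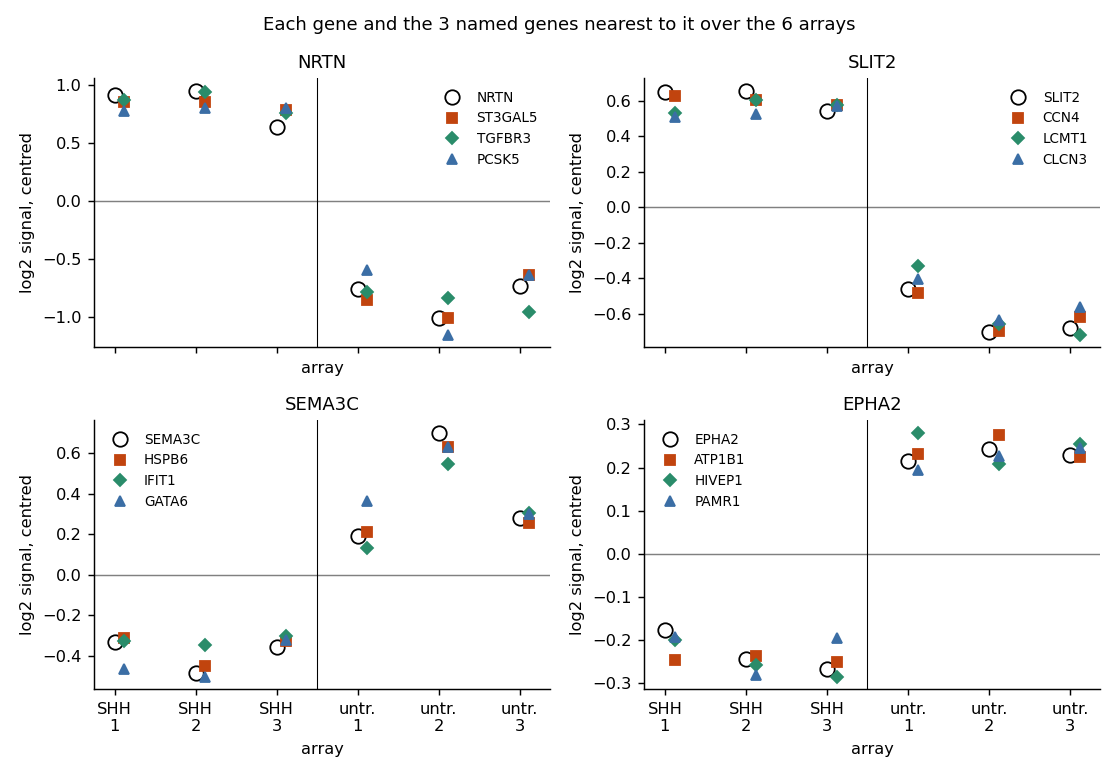
Log2 signal of each member (open circles) and of its 3 nearest named genes, centred on each gene's mean, over the 6 arrays, SHH left and untreated right. SEMA3C and its 3 nearest genes are all highest on untreated replicate 2.

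The differences of the members kept their sign under every setting tried. As the groups did not overlap on any member probe set, leaving 1 array out or changing the pseudocount could not reverse a sign. With 1 array left out, the log2 difference lay between 1.58 and 1.77 for NRTN, 1.19 and 1.31 for the brightest SLIT2 probe set, -0.88 and -0.63 for SEMA3C, and -0.48 and -0.44 for EPHA2.

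**Figure D5:**
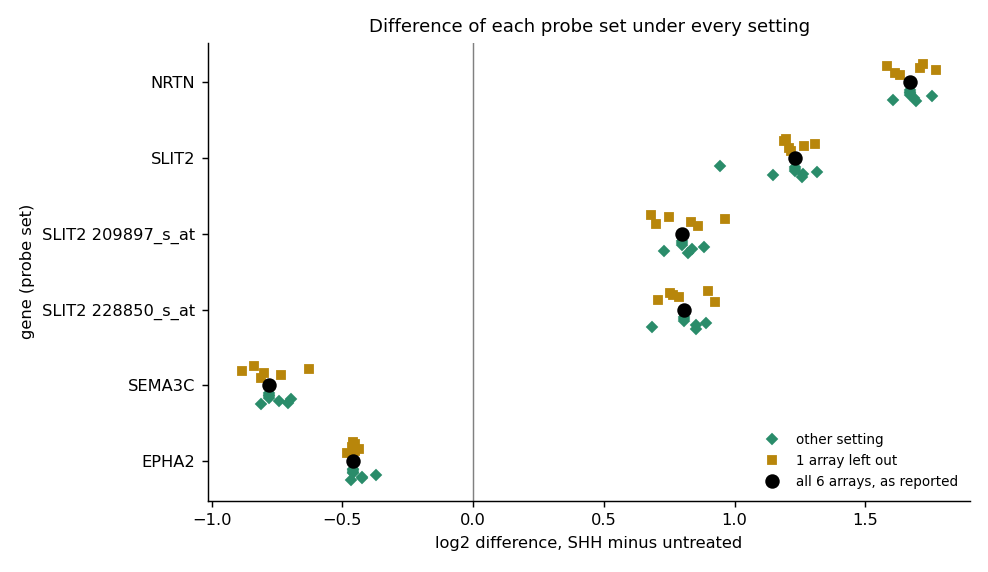
Log2 difference of the 6 member probe sets with all 6 arrays (black), with 1 array left out (squares) and under the other settings (diamonds). All values stay on their side of 0, NRTN between 1.58 and 1.77 and EPHA2 between -0.48 and -0.37. With the groups apart, leaving 1 array out could not reverse a sign.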

How the data were processed

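Per the labels' protocols, total RNA from each of the 6 cultures was column-purified and transcribed into biotin-labelled cRNA for Affymetrix arrays. The deposited value table holds 1 linear intensity per probe set and array, made by the authors; neither probe summary nor scaling is described in the labels. Their deposited test, Cyber-T per the deposited readme, gives a t score, a log2 fold change and a p-value and q-value per probe set. Per the file headers it runs untreated minus SHH, and its sign was turned. The 18 per-array columns of 3 short deposited lists were not used. Names came from the authors' list of 2411 probe sets with p up to 0.05, used for naming only: 2131 probe sets of 1632 genes had 1 symbol in which both columns did not disagree, updated through RefSeq synonyms (GRCh38.p14).

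SHH was compared with untreated with limma 3.58.1 in R 4.3.3 (lmFit, eBayes, 2-sided, Benjamini-Hochberg over 54613 probe sets, threshold 0.05) on log2(intensity + 16), which understates differences of dim probe sets; no filter was applied. The fit was also run on simulated arrays with known changes and independent noise, a check of the code and not of these results. The members and lists were chosen with earlier results of these data known. Named in the text are the members, every named gene of the 4 lists, PTCH1, GLI1, the 3 nearest genes of each member and the named markers; NEFL and the genes of the closing section were chosen after their values were seen. Replicate numbers are not linked to days in the labels, and no batch is recorded. The alternatives were other pseudocounts, scalings, priors, a signal filter, a replicate block, each array left out and the mean over a gene's named probe sets.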

Additional observations from a re-analysis of the deposited data

How the results depend on the processing

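The 67 probe sets past limma's threshold over the whole table became 0 when 1 was added before the log (5009 at unadjusted p under 0.05) and 295 when 64 was. They became 66 with quantile normalization, 34 with median-centred arrays, 1014 with an intensity trend and 558 among probe sets above the median signal. The replicate block left 0 (4746 at unadjusted p under 0.05). Higher calls made up 67.2% of the 67 and 94.1% of the 34. The 2 member probe sets past the threshold stayed 2 with a pseudocount of 64 and with quantile normalization. They became 0 with a pseudocount of 1, 1 with median centring, 6 with the trend, 4 with the signal filter and 0 with the replicate block. In each case all 6 had an unadjusted limma p under 0.05. Of the named genes of the 4 lists, 13 passed with the trend and 2 without it. Without any 1 of the 6 arrays both counts were 0, with 4411 to 5180 probe sets over the table and all 6 member probe sets at an unadjusted p under 0.05. The cause was not tested. The log2 difference of SLIT2 was 0.94 as the mean of its 3 named probe sets, and that of EPHA2 was -0.37 with median centring. With 1 array left out it ranged from 1.58 to 1.77 for NRTN, 1.19 to 1.31 for SLIT2, -0.88 to -0.63 for SEMA3C and -0.48 to -0.44 for EPHA2. No member difference changed sign, and with the groups apart, leaving 1 array out or changing the pseudocount could not have changed it. Over all probe sets, deviations from the group means correlated at 0.01, 0.02 and -0.01 between same-numbered arrays. Dim probe sets are included, so these values do not settle whether the cultures were paired. No detection calls were used, so how far dim signals stand above background is not known.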

Other observations

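Further genes with neuronal names were looked up after the values had been seen, by searching the array annotation's titles for words of neurons, axons, nerves and synapses, for neuromedin and neurofilament, and for slit. Over all probe sets, with no choice by p, 0.123% passed limma's adjusted threshold and 1.86% passed with an intensity trend. Outside the lists, 21 named genes had such a title, 12 higher and 9 lower with SHH. With an intensity trend 10 of them passed, and without it 1. That gene was LRRTM2, a leucine-rich repeat transmembrane protein known from synapses, at 562 ± 12.8 with SHH and 203 ± 23.6 untreated (SD, n = 3 each; log2 difference 1.41 ± 0.12, limma adjusted p = 0.0468). SLITRK6, a transmembrane protein with leucine-rich repeats related to those of slits, averaged 1062 ± 87.4 with SHH and 739 ± 58.9 untreated (SD, n = 3 each), a log2 difference of 0.51 ± 0.12 (limma adjusted p = 0.271). The leucine-rich repeat proteins LRRN3 and LRRN2 lay at -0.81 ± 0.12 and -0.68 ± 0.12. The neuropeptide gene NMB (neuromedin B) had a dim 231 ± 44.7 with SHH and 94.0 ± 37.1 untreated (SD, n = 3 each), a log2 difference of 1.20 ± 0.28 (limma adjusted p = 0.252). TAC3, titled neuromedin K, lay the other way, at 639 ± 32.6 with SHH and 841 ± 54.8 untreated (SD, n = 3 each). Its log2 difference was -0.39 ± 0.11 (limma adjusted p = 0.351). With an intensity trend neither passed (limma adjusted p = 0.0853 for NMB and 0.0651 for TAC3). The neurofilament gene NEFL is described with the neuronal markers. These genes were picked by title and by their p in these samples, and neither their directions nor the counts that passed are independent evidence.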
